A study of Mus musculus with 6 samples.

Results

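The genes followed were those of protein kinase A (PKA) and of the transcription factors that act below it: Prkaca and Prkacb, which encode catalytic subunits, Prkar1a, Prkar1b, Prkar2a and Prkar2b, which encode regulatory subunits, Akap12, which encodes an anchoring protein, and Creb1 and Crem. They were 9 of the 55401 gene identifiers in the deposited table, each found by its symbol with 1 identifier, and 8 of the 9 passed the filter on low values (a mean of at least 0.5 FPKM over all libraries). Prkar1b did not. The genes were chosen by name, with their FPKM in the control and Ifitm3 siRNA libraries known, and Prkaca is among the genes that the study drew in a heatmap. Their differences between the groups are therefore given as descriptions. The number of them past each threshold used for all genes stands only beside the share of all genes past it, and is no test of the genes chosen.

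The cells were mNRPCs, adult mouse neural retinal progenitor cells that the study's laboratory had established and that were grown on Matrigel with N2/B27, bFGF and the GSK3 inhibitor CHIR99021. They received a control siRNA (3 libraries) or an siRNA against Ifitm3 (3 libraries) with a lipid reagent, and RNA was sequenced 48 h after transfection. Ifitm3 encodes an interferon-induced membrane protein that restricts virus entry. FPKM count sequenced fragments relative to transcript length in kilobases and to the mapped fragments of the library, so levels of different genes are compared per length, and how many reads stand behind each library is unknown. The sources used here do not say that the 3 libraries of a group came from separate cultures, so p-values measure the spread between these libraries only, which may be technical. In bulk RNA, fewer cells of a type and less RNA per cell cannot be told apart.

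PKA is a tetramer of regulatory and catalytic subunits. Cyclic AMP, made by adenylyl cyclases below receptors that couple to Gs, binds the regulatory subunits and frees the catalytic subunits, which phosphorylate CREB among many other proteins. Phosphorylated CREB recruits coactivators at cAMP response elements (CREs) in promoters, and anchoring proteins hold PKA at chosen places in the cell. In neural progenitors PKA is also known as a brake on Hedgehog signaling, because it phosphorylates Gli proteins.

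The siRNA strands are shown first, because the groups differ in the duplex they received and short matches to their seeds were counted in the genes below. Capitals mark the seed (bases 2 to 8 from the 5′ end). The scramble duplex is the one listed for the study's experiments, and the sources used here do not state that it is the control siRNA of the sequenced libraries.
Ifitm3 siRNA antisense: aUGUUGAUcacaguaguuc
Ifitm3 siRNA sense: gAACUACUgugaucaacau
scramble siRNA antisense: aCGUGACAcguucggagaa
scramble siRNA sense: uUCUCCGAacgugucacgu

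The 7-base site of the Ifitm3 antisense seed (ATCAACA) was searched in the longest annotated 3′ UTR of each gene (GENCODE vM21, GRCm38), on the transcript strand only, and occurred in 6.77% of 11158 UTRs. It occurred in 4.51% of 1953 UTRs whose length lay within 25% of that of Prkaca (1026 nt). None of the 9 genes held it (0 sites), Prkaca included. The site of the sense strand seed (AGTAGTT, in 9.85% of UTRs) was found in 1 of the 9 genes, Creb1, at bases 3581 to 3587 of a UTR of 7170 nt. It is shown with the site in capitals.
Creb1 3′ UTR site: gttgtatttacAGTAGTTctttgtaaagg
For the scramble seeds (TGTCACG and TCGGAGA, in 2.99% and 2.06% of UTRs), Prkaca held 0 sites and 1 site of the antisense strand was found in the longest UTR of Crem. The longest run of bases complementary to the Ifitm3 antisense strand was 6 in Prkaca, against all 19 in Ifitm3. A match is a description of the letters and not evidence of an effect on the transcript.

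Promoter sequence came from RefSeq (GRCm38.p6, windows from 250 bases before to 50 after each annotated start), which held 20 windows for 7 of the 9 genes. None was matched for Akap12 and Crem. The palindromic CRE (TGACGTCA) lay in 1.79% of all 32851 promoter windows, and its 5-base core (TGACG, or CGTCA on the other strand) in 20.8%. Each palindrome holds a pair of overlapping cores, so both counts share windows. Among the 7 genes, 1 (Prkar1a) held the palindrome and 5 (Prkaca, Prkacb, Prkar1a, Prkar1b and Prkar2a) held the core in at least 1 of their windows. Counted by window, as the shares of all windows are, 2 of 20 held the palindrome, both in Prkar1a, and 7 of 20 the core, and overlapping windows of 1 gene share sites. Creb1 and Prkar2b held neither in these windows. The 250 bases before the start are printed for Prkaca, the subunit gene whose groups did not overlap, and for Prkar1a. They are also printed for Areg, 1 of 5 genes in the cAMP pathway lists below that hold the palindrome. Capitals mark the core or the palindrome, all 3 lie on the plus strand, and the regions are chr8:83972728-83972977, chr11:109650699-109650948 and chr5:91139349-91139598.
Prkaca: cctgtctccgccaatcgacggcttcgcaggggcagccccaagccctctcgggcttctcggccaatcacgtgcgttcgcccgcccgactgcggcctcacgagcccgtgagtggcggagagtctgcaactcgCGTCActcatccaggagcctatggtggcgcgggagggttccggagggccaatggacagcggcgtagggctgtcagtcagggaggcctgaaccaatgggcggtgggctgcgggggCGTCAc
Prkar1a: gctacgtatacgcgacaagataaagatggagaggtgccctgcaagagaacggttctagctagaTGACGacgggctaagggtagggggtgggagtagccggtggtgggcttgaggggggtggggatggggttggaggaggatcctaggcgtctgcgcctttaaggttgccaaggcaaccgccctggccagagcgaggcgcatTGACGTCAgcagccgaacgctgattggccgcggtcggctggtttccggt
Areg: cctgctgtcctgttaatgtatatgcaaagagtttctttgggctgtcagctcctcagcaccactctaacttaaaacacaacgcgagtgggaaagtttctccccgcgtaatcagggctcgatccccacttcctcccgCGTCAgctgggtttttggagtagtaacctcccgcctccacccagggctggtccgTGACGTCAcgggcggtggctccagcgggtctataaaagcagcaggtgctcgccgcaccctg
In Prkaca the cores begin 120 and 6 bases before the start. The palindrome begins 49 bases before this start of Prkar1a and 61 bases before that of Areg. Other starts are annotated for Prkaca and Prkar1a, and the FPKM per gene do not show which start was used.

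Ifitm3 itself was measured at 3121, 2120 and 2509 FPKM in the control libraries and at 349.7, 546.4 and 398.5 FPKM in the Ifitm3 siRNA libraries. Every Ifitm3 siRNA library lay below every control library. Its log2 fold change, here and below on the scale of log2(FPKM + 0.1), which understates the change of low genes, was -2.59 (standard error 0.23). It did not pass the adjusted threshold (adjusted p = 0.1001, limma with Benjamini-Hochberg adjustment over 13588 genes). On the first principal component, which held 37.1% of the variance, the replicate 2 libraries lay at -32.0 (control) and -47.6 (Ifitm3 siRNA). Ifitm3 siRNA replicate 3 lay at -0.15 and the other libraries between 22.9 and 33.1. On the second (22.3%), control libraries lay between 9.65 and 30.4 and Ifitm3 siRNA libraries between -37.8 and -11.7. Of 10 progenitor markers 6 had a mean of at least 1 FPKM, among them Sox2 and Pax6, while the retinal progenitor factors Rax and Six6 were listed at 0 in all libraries. The summed progenitor markers overlapped, at 123 to 149 FPKM in control and 127 to 161 FPKM in Ifitm3 siRNA libraries. The summed markers of Mueller glia lay between 26.4 and 32.8 FPKM in control libraries and between 35.1 and 41.6 FPKM in Ifitm3 siRNA libraries, without overlap, with 3 of the 6 (Glul, Apoe and Clu) at a mean of at least 1 FPKM and Rlbp1 under 0.1 FPKM. Taken singly, Glul, Apoe and Clu each overlapped between the groups, and Slc1a3 had a mean of 0.115 FPKM. Summed mesenchymal markers lay between 166 and 224 FPKM in control and between 118 and 211 FPKM in Ifitm3 siRNA libraries. Most of that sum was Col3a1 (mean 131 FPKM), whose groups overlapped, and 5 of the 9 markers had a mean of at least 1 FPKM. Of the others at that level, Pdgfrb and Twist1 had lower means after Ifitm3 siRNA, and Pdgfra and Prrx1 higher means. Prrx1 did so without overlap (9.65 to 12.4 against 14.2 to 17.8 FPKM). Of all genes tested, 9.96% lay higher without overlap. The part of these markers in the differences below was not tested.

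In control cells the transcripts of 3 subunits made up most of what was measured of PKA: Prkar1a, Prkaca and Prkar2b. After Ifitm3 siRNA the mean of Prkaca was 59.3% of its control mean, and its groups did not overlap, while the other subunit genes, Akap12, Creb1 and Crem had values that overlapped between the groups. Of the 8 genes above the filter, 0 passed an adjusted p of 0.05 (all genes: 0.00736% called) and 0 passed an unadjusted p under 0.05 with a log2 fold change beyond 1 in either direction (all genes: 1.43%). At an unadjusted p under 0.05 the same fit put 0 higher (all genes: 5.32%) and 1, Prkaca, lower (all genes: 3.37%). By values alone, 0 lay higher without overlap (all genes: 9.96%) and 1 lay lower without overlap (all genes: 5.69%). These counts rest on the libraries in which the genes were chosen, so nothing is read from them. Of all genes at an unadjusted p under 0.05, 61.2% were higher, against 43.1% with median-ratio scaling and 45.9% with quantile normalization, which move the median of all genes from 0.04 to -0.01 and -0.00 on the log2 scale.

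**Figure D1:**
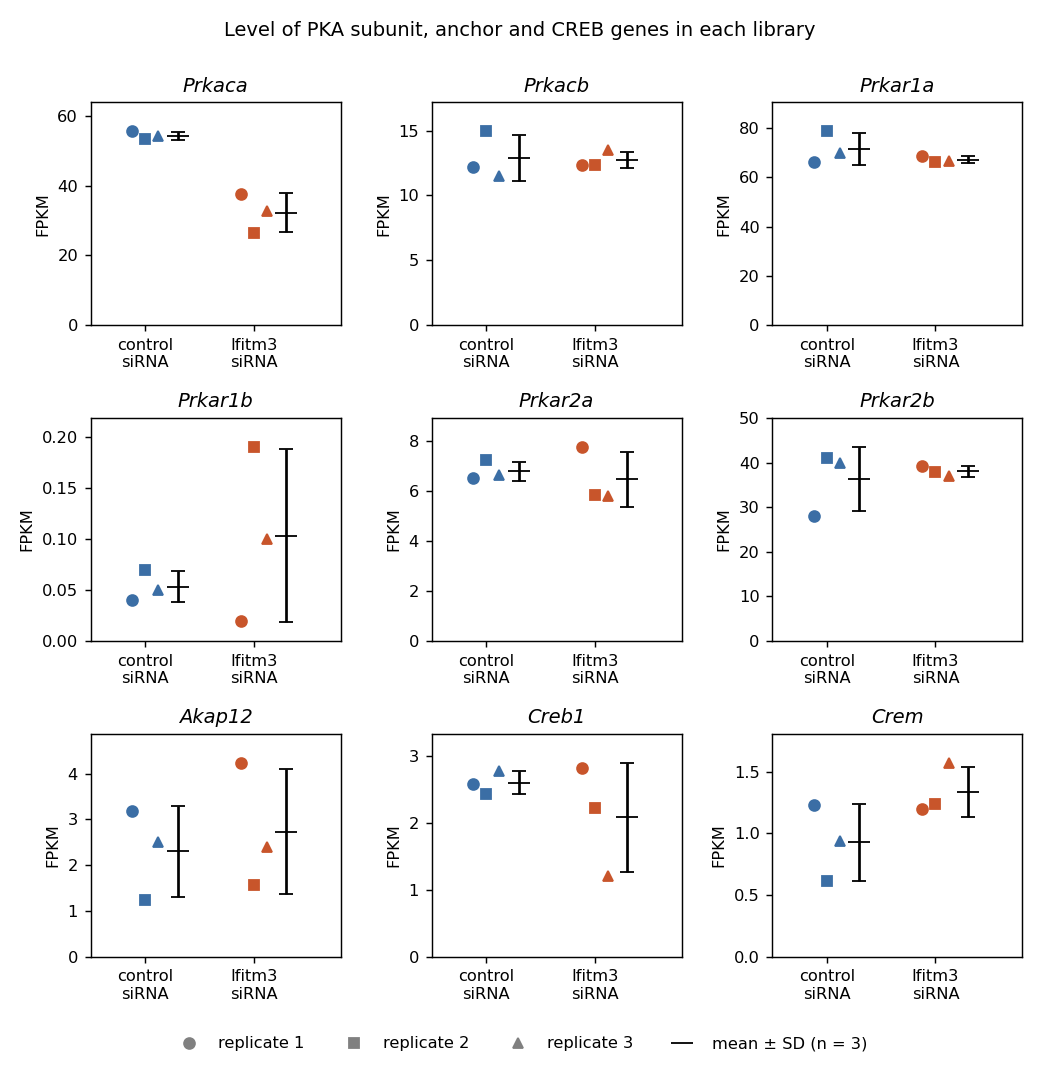
FPKM of each of the 9 genes (y axis, linear from 0, own scale per gene) in the 3 control siRNA libraries (blue) and the 3 Ifitm3 siRNA libraries (orange), with marker shape for the replicate number and a bar for mean ± SD. For Prkaca the lowest control library (53.3) lies above the highest Ifitm3 siRNA library (37.6), and in the other 8 genes the groups overlap.

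Prkaca encodes the alpha catalytic subunit, the broadly expressed form of the kinase. Its position in GRCm38 is chromosome 8, 83972993 to 83996443, plus strand, and no annotated gene overlaps it. The control libraries gave 55.5, 53.3 and 54.2 FPKM, a mean of 54.3 ± 1.12 (SD, n = 3) and rank 916 of all genes. The Ifitm3 siRNA libraries gave 37.6, 26.5 and 32.6 FPKM, a mean of 32.2 ± 5.56 (SD, n = 3). The control libraries agreed closely with each other, more so than for nearly every other gene (1.96% of genes tested had a smaller SD of control log2 values), whereas the Ifitm3 siRNA libraries spread further, with replicate 2 lowest. On the log2 scale the difference was -0.77 (standard error 0.15), and it lay between -0.88 and -0.63 over 12 alternative settings, among them -0.65 without both replicate 2 libraries.

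Prkacb encodes the beta catalytic subunit, which has several splice forms and is prominent in brain. Its values were 12.2, 14.9 and 11.5 FPKM in control libraries and 12.4, 12.3 and 13.5 FPKM in Ifitm3 siRNA libraries. All 3 Ifitm3 siRNA values lay within the control range, and the log2 fold change was -0.01 (standard error 0.14). Over the alternatives it took both signs, from -0.09 to 0.12. Prkacb lies on chromosome 3 from 146729574 to 146812990 on the minus strand, with the pseudogene Gm19104 on the opposite strand, which was listed at 0 in all libraries.

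Because these genes were measured per length, the catalytic transcripts could be summed. Prkaca and Prkacb together came to 67.8, 68.2 and 65.7 FPKM in control libraries and to 49.95, 38.8 and 46.1 FPKM in Ifitm3 siRNA libraries. The share of Prkaca in this sum was 82.0, 78.1 and 82.5% in control libraries and 75.3, 68.2 and 70.8% in Ifitm3 siRNA libraries. Both the sum and the share were lower in every Ifitm3 siRNA library than in every control library, and the share of replicate 2 was the lowest of its group in each group. Both contain Prkaca, and Prkacb differed little, so these differences restate that of Prkaca. The mean share moved from 80.9 ± 2.38% to 71.4 ± 3.56% (SD, n = 3), a difference of -9.44 percentage points that ranged from -11.4 to -7.84 points when single libraries were left out and was -9.20 points without both replicate 2 libraries.

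Among the regulatory subunits, Prkar1a encodes type I alpha, which is expressed in most tissues. It was the most abundant of the 9 transcripts, at 66.1, 78.6 and 69.9 FPKM in control libraries and 68.7, 66.0 and 66.5 FPKM in Ifitm3 siRNA libraries. The groups overlapped, with control replicate 2 highest. Its log2 fold change was -0.09 (standard error 0.12), between -0.15 and -0.01 over the alternatives. Prkar1a lies on chromosome 11 from 109649405 to 109669656 on the plus strand.

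Prkar2b encodes type II beta, best known in brain and adipose tissue. Its control values were 28.1, 41.0 and 39.9 FPKM and its Ifitm3 siRNA values 39.3, 37.9 and 37.0 FPKM. Control replicate 1 was the lowest of all 6 libraries, and the other 5 lay close together. Prkar2b had a log2 fold change of 0.09 (standard error 0.17), which was -0.09 without control replicate 1 and up to 0.19 under the other alternatives. Prkar2b lies on chromosome 12 from 31958476 to 32061296 on the minus strand.

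Prkar2a, which encodes type II alpha, was at 6.52, 7.23 and 6.63 FPKM in control libraries and at 7.76, 5.86 and 5.82 FPKM in Ifitm3 siRNA libraries. The control values lay between the Ifitm3 siRNA values, of which replicate 1 was the highest of all 6. Prkar2a had a log2 fold change of -0.08 (standard error 0.15), from -0.21 to 0.03 over the alternatives. It lies on chromosome 9 from 108689314 to 108750436 on the plus strand and holds the small RNA gene Gm24259 on the opposite strand, listed at 0 in all libraries.

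Prkar1b, type I beta, is known mainly from neurons. It was listed at 0.04, 0.07 and 0.05 FPKM in control libraries and 0.02, 0.19 and 0.10 FPKM in Ifitm3 siRNA libraries. These values are close to the 0.01 step in which the table is written, so no fold change is given from them. Prkar1b lies on chromosome 5 from 139017306 to 139150001 on the minus strand and shares bases with Gm15672 on the same strand, which was listed at 0.06 to 0.21 FPKM.

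The 4 regulatory genes together came to 100.7, 126.9 and 116.4 FPKM in control libraries and to 115.8, 110.0 and 109.3 FPKM in Ifitm3 siRNA libraries, and the groups overlapped. Prkar1a made up 62.5 ± 2.84% of this sum in control and 60.1 ± 0.713% in Ifitm3 siRNA libraries, and Prkar2b 31.5 ± 3.26% and 34.1 ± 0.338% (SD, n = 3). Regulatory transcripts outnumbered catalytic transcripts in every library, by ratios of 1.49, 1.86 and 1.77 in control libraries and 2.32, 2.83 and 2.37 in Ifitm3 siRNA libraries. Each Ifitm3 siRNA library had a higher ratio than each control library. The catalytic sum contains Prkaca and the regulatory sums overlapped, so the ratio also restates the difference of Prkaca. The mean ratio was 1.71 ± 0.195 in control and 2.51 ± 0.282 in Ifitm3 siRNA libraries (SD, n = 3), and the difference of 0.801 lay between 0.639 and 0.896 when single libraries were left out and was 0.716 without both replicate 2 libraries. RNA levels do not give the amounts of the subunit proteins, which were not measured here.

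**Figure D2:**
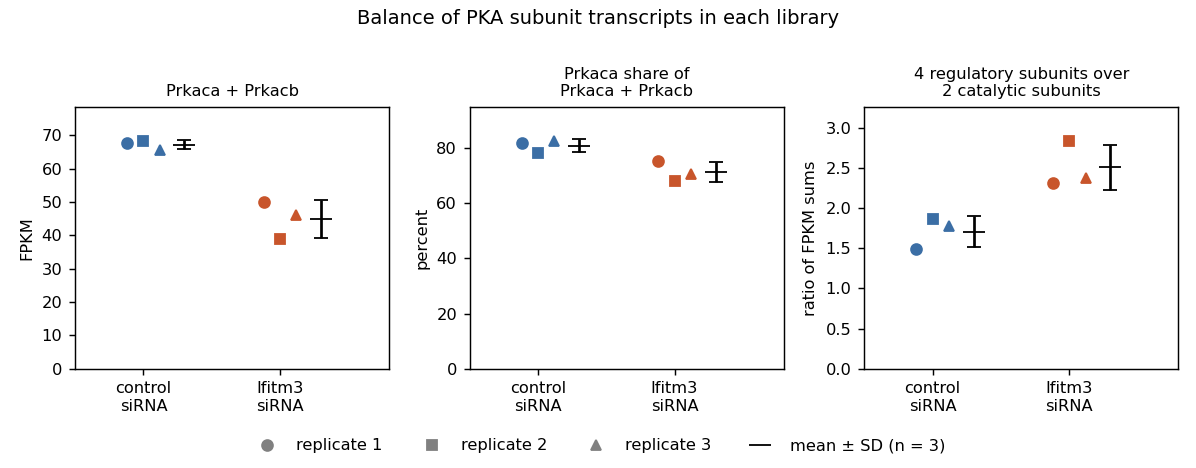
Sum of Prkaca and Prkacb in FPKM (left), share of Prkaca in that sum in percent (middle) and ratio of the summed regulatory to the summed catalytic FPKM (right), by group, with points for libraries and bars for mean ± SD. Control and Ifitm3 siRNA libraries do not overlap in any of the 3 panels, with mean shares of 80.9% and 71.4% and mean ratios of 1.71 and 2.51. All 3 quantities contain Prkaca, so the panels restate its difference and are not separate results.

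Ordered by control level, the 9 genes were Prkar1a, Prkaca, Prkar2b, Prkacb, Prkar2a, Creb1, Akap12, Crem and Prkar1b. Neighbours in this order did not overlap across the control libraries, except Creb1 with Akap12 and Akap12 with Crem, whose ranges met at 1.23 FPKM. In Ifitm3 siRNA libraries the mean of Prkar2b (38.1 FPKM) was above that of Prkaca (32.2 FPKM), although their ranges overlapped. Prkaca exceeded Prkar2b in every control library and fell short of it in every Ifitm3 siRNA library.

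Akap12 encodes gravin, a scaffold that binds PKA and protein kinase C near the membrane. It was at 3.19, 1.23 and 2.50 FPKM in control libraries and at 4.23, 1.57 and 2.39 FPKM in Ifitm3 siRNA libraries. In each group replicate 2 was the lowest, so the values differed more within groups than between them, and 91.3% of genes tested had a smaller SD of control log2 values. Akap12 had a log2 fold change of 0.22 (standard error 0.45) and took both signs over the alternatives, from -0.16 to 0.55. Akap12 lies on chromosome 10 from 4266380 to 4359470 on the plus strand.

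Creb1 encodes CREB, the activator that PKA phosphorylates. Its values were 2.58, 2.44 and 2.78 FPKM in control libraries and 2.82, 2.22 and 1.21 FPKM in Ifitm3 siRNA libraries. Ifitm3 siRNA replicate 3 was the lowest of all, while replicate 1 was the highest. Its log2 fold change of -0.38 (standard error 0.30) ranged from -0.63 to -0.05 over the alternatives and did not exceed the spread between the Ifitm3 siRNA libraries. Creb1 lies on chromosome 1 from 64532645 to 64604548 on the plus strand.

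**Figure D3:**
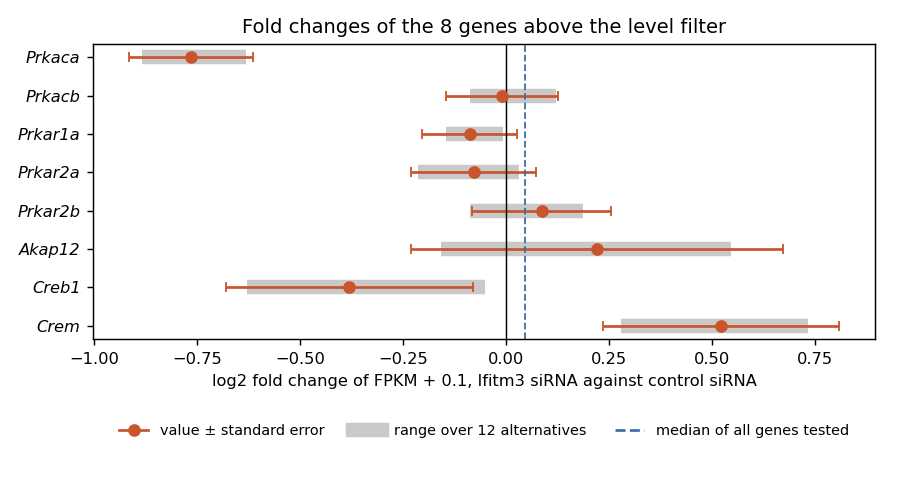
Log2 fold change of FPKM + 0.1 (x axis, Ifitm3 siRNA against control siRNA) of the 8 genes above the filter, with standard errors as whiskers, grey bars for the range over 12 alternative settings, a solid line at 0 and a dashed line at the median of all genes tested (0.04). Prkaca, at -0.77, lies farthest below 0, and Crem, at 0.52, farthest above it.

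Crem encodes the cAMP response element modulator, from which alternative starts and splicing give activators as well as repressors such as ICER. It was at 1.23, 0.61 and 0.94 FPKM in control libraries and at 1.20, 1.24 and 1.57 FPKM in Ifitm3 siRNA libraries. Control replicate 1 lay inside the Ifitm3 siRNA range and the other control libraries lay below it. Crem had a log2 fold change of 0.52 (standard error 0.29), between 0.28 and 0.73 over the alternatives, from a level of about 1 FPKM. Of all genes tested, whatever their level, 82.0% had a smaller SD of control log2 values. The row of Crem in the table pools 39 transcripts, so activator and repressor forms cannot be told apart. Crem lies on chromosome 18 from 3266048 to 3337748 on the minus strand, and Gm6225 on the opposite strand was listed at 0.01 to 0.06 FPKM. The libraries were prepared to mark strand, but no source used here says whether the counting used it.

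The genes whose pattern over the 6 libraries was most like that of Prkaca were picked by the root mean square difference of centred log2 values among 7382 genes (mean FPKM of 5 or more). They were Isoc1 (0.0804), Clic4 (0.0830), Hap1 (0.0926), Lats2 (0.104) and Slc7a6 (0.105). Isoc1 encodes an isochorismatase domain protein, Clic4 a chloride intracellular channel protein, Hap1 the huntingtin-associated protein, Lats2 a kinase of the Hippo pathway and Slc7a6 an amino acid transporter. Isoc1 was at 25.4, 22.95 and 23.6 FPKM in control libraries and at 14.8, 12.25 and 14.9 FPKM in Ifitm3 siRNA libraries. Clic4 was at 33.2, 28.0 and 30.6 FPKM in control libraries and at 20.8, 16.6 and 18.0 FPKM in Ifitm3 siRNA libraries. In all 5 genes, which were selected for this pattern, every Ifitm3 siRNA library lay below every control library, and log2 fold changes ran from -0.78 (Isoc1) to -0.65 (Lats2). Of the other subunits, Prkar2a ranked 1379 and Prkar1a 1643 by likeness to Prkaca, Prkacb ranked 2808 and Prkar2b 4299.

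Of these 5 genes, Clic4 alone held the Ifitm3 antisense seed site in its longest 3′ UTR, with 2 sites in 3132 nt, at bases 2832 to 2838 and 3069 to 3075. Both are shown with the site in capitals, next to Prkaca, which held none.
Clic4 3′ UTR site, first: agttggcaataATCAACAtttggtttgga
Clic4 3′ UTR site, second: ttctctggaacATCAACAccagtgtattg

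The rest of the pathway was described with 8 lists of 123 genes. The lists were chosen with earlier results of these data known, so their counts are descriptions. Of the genes listed, 122 were in the table and 67 passed the filter. Of these 67, 6 were higher and 1 was lower at an unadjusted p under 0.05 (8.96% and 1.49%, against 5.32% and 3.37% of all genes), and 0 passed after Benjamini-Hochberg adjustment of the limma p-values over 13588 genes. By values alone, 11 of the 67 lay higher without overlap (all genes: 9.96%) and 2 lower (all genes: 5.69%). The median log2 fold change of the 67 was 0.18, beside 0.04 for all genes, with 49 above 0 and 18 below. With median-ratio scaling the median was 0.12 and with quantile normalization 0.09, with 6 higher and 1 lower in each. With the counts at 4 higher and 2 lower without control replicate 3, and 11 higher and 1 lower without control replicate 2, the number of genes called depended on single libraries.

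Receptors and cyclases upstream of PKA were at low levels. Of 20 receptors that couple to Gs, 3 passed the filter. At an unadjusted p under 0.05, 0 were higher (all genes: 5.32%) and 0 lower (all genes: 3.37%). With 3 genes tested, nothing is read from this 0. The most abundant were Ptger4, a receptor for prostaglandin E2, at 1.40 ± 0.264 and 2.04 ± 0.531 FPKM, and Adora2b, an adenosine receptor, at 1.53 ± 0.621 and 0.973 ± 0.143 FPKM (control and Ifitm3 siRNA, SD, n = 3). Of 10 adenylyl cyclases, 3 passed the filter and 0 the test, with Adcy6 at 6.19 ± 0.571 and 7.00 ± 0.263 FPKM and Adcy3 at 1.03 ± 0.0862 and 1.18 ± 0.225 FPKM. With all 6 libraries the unadjusted limma p of Adora2b was 0.139 (log2 fold change -0.54). It was 0.0260 (log2 fold change -0.83) without control replicate 3. The receptor and cyclase genes named lay below Prkar1a, Prkaca and Prkar2b in FPKM.

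Of the 6 alpha subunits of Gs and Gi proteins, 4 passed the filter. At an unadjusted p under 0.05, 0 were higher (all genes: 5.32%) and 1 was lower (25%, all genes: 3.37%). This was Gnai2, which encodes an inhibitor of adenylyl cyclase, at 122.9, 101.7 and 120.4 FPKM in control libraries and 94.2, 73.2 and 83.5 FPKM in Ifitm3 siRNA libraries. The groups did not overlap, and replicate 2 was the lowest of each group. The log2 fold change was -0.46 (standard error 0.15; unadjusted p = 0.0171, adjusted p = 0.507, limma with Benjamini-Hochberg adjustment). Without control replicate 1 or control replicate 3 the unadjusted limma p was 0.0619 and 0.0569. Gnas, named after its values were seen, encodes the Gs alpha subunit that activates the cyclases. It was at 79.6, 76.3 and 82.2 FPKM in control libraries and at 73.2, 58.8 and 75.96 FPKM in Ifitm3 siRNA libraries. Its groups did not overlap either, the nearest libraries being at 76.3 and 75.96 FPKM, with a log2 fold change of -0.20 (standard error 0.14; unadjusted p = 0.183, adjusted p = 0.699, limma with Benjamini-Hochberg adjustment).

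Phosphodiesterases, which break down cAMP, passed the filter in 7 of 16 genes. At an unadjusted p under 0.05, 0 were higher (all genes: 5.32%) and 0 lower (all genes: 3.37%). Pde7a was at 9.28 ± 0.902 and 7.88 ± 1.38 FPKM and Pde3b at 5.90 ± 2.32 and 8.13 ± 2.86 FPKM (control and Ifitm3 siRNA, SD, n = 3). Of 13 genes of PKA inhibitors and other cAMP effectors, 8 passed the filter and 0 the same threshold in either direction. Both lists are short, so nothing is read from a count of 0. Pkig, which encodes an inhibitor peptide that binds free catalytic subunits, was at 10.4 ± 1.36 and 11.4 ± 4.25 FPKM. Prkx, a kinase related to the catalytic subunits, was at 3.83 ± 0.591 and 5.41 ± 1.76 FPKM. For all 4 of these genes the groups overlapped. With all 6 libraries the unadjusted limma p of Pde3b was 0.206 (log2 fold change 0.47) and that of Prkx 0.113 (0.45). The p of Pde3b was 0.0394 (log2 fold change 0.76) without control replicate 2. That of Prkx was 0.0384 (log2 fold change 0.64) without Ifitm3 siRNA replicate 2.

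Of 19 anchoring proteins in the table other than Akap12, 11 passed the filter. Of the 11, 1 was higher (9.09%, all genes: 5.32%) and 0 were lower (all genes: 3.37%) at an unadjusted p under 0.05. Akap10, which binds regulatory subunits of both types, was at 1.67, 1.76 and 1.67 FPKM in control libraries and at 3.03, 5.04 and 2.22 FPKM in Ifitm3 siRNA libraries. The control libraries were nearly equal and the Ifitm3 siRNA libraries were all higher, with replicate 2 highest. Akap10 had a log2 fold change of 0.89 (standard error 0.29; unadjusted p = 0.0190, adjusted p = 0.517, limma with Benjamini-Hochberg adjustment).

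All 14 CREB partners and coactivators passed the filter. Among them, 1 was higher (7.14%, all genes: 5.32%) and 0 were lower (all genes: 3.37%) at an unadjusted p under 0.05. Crtc2, a coactivator that enters the nucleus when dephosphorylated and binds CREB, was at 18.2, 18.2 and 17.1 FPKM in control libraries and at 22.3, 25.1 and 22.4 FPKM in Ifitm3 siRNA libraries. Each Ifitm3 siRNA library lay above each control library. Crtc2 had a log2 fold change of 0.38 (standard error 0.11; unadjusted p = 0.0110, adjusted p = 0.475, limma with Benjamini-Hochberg adjustment), and the list median was 0.17.

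Of 24 genes listed as induced through CREB, 17 passed the filter. The list was written from general knowledge, and neither CREB binding nor CREB activity was measured here. Of the 17, 4 were higher (23.5%, all genes: 5.32%) and 0 were lower (all genes: 3.37%) at an unadjusted p under 0.05. The list median was 0.18, with 13 above 0 and 4 below. Of the 4, Cdkn1a, Nr4a1 and Areg are genes that the study drew in its heatmaps of these samples, so their direction is not independent evidence. Bdnf was not among the genes drawn. The lists were chosen with earlier results of these data known, so neither the direction of Bdnf nor the count of 4 is independent evidence. The count of 4 was 1 without Ifitm3 siRNA replicate 1 and 2 without control replicate 3, with 1 lower in the latter.

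Cdkn1a, which encodes the cell cycle inhibitor p21, was at 3.46, 7.12 and 6.12 FPKM in control libraries and at 10.5, 9.69 and 12.4 FPKM in Ifitm3 siRNA libraries. Cdkn1a had a log2 fold change of 1.01 (standard error 0.27; unadjusted p = 0.00848, adjusted p = 0.471, limma with Benjamini-Hochberg adjustment). Nr4a1, an immediate early gene for an orphan nuclear receptor, was at 1.17, 2.54 and 2.43 FPKM in control libraries and at 6.01, 3.72 and 3.42 FPKM in Ifitm3 siRNA libraries. In both genes control replicate 1 was the lowest library and the groups did not overlap. The log2 fold change of Nr4a1 was 1.09 (standard error 0.35; unadjusted p = 0.0176, adjusted p = 0.507, limma), and without Ifitm3 siRNA replicate 1 its unadjusted p was 0.0577.

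Areg, which encodes the EGF receptor ligand amphiregulin, was at 5.80, 14.9 and 9.17 FPKM in control libraries and at 20.8, 18.0 and 16.1 FPKM in Ifitm3 siRNA libraries. Bdnf, which encodes a neurotrophin, was at 1.70, 1.60 and 1.41 FPKM in control libraries and at 2.70, 2.28 and 2.11 FPKM in Ifitm3 siRNA libraries. In both genes every Ifitm3 siRNA library lay above every control library, although the control values of Areg were widely spread. The log2 fold changes were 0.97 (standard error 0.33; unadjusted p = 0.0226, adjusted p = 0.520) for Areg and 0.56 (standard error 0.17; unadjusted p = 0.0151, adjusted p = 0.501) for Bdnf, from limma with Benjamini-Hochberg adjustment. The unadjusted limma p of Areg was 0.0519, 0.0679 and 0.0521 without control replicate 3, Ifitm3 siRNA replicate 1 and Ifitm3 siRNA replicate 2, and that of Bdnf 0.0570 and 0.0514 without control replicate 3 and Ifitm3 siRNA replicate 1. Of the listed genes 99 matched a RefSeq promoter, with 149 windows. Of these windows 5 held the palindromic CRE and 48 the core (shares of all promoter windows: 1.79% and 20.8%). The palindromes were those of Areg, Dio2, Dusp1, Gpr6 and Sst. Besides Areg only Dusp1 passed the filter, with a log2 fold change of -0.44 (standard error 0.24) and groups that overlapped. Nr4a1 and Bdnf held the core in at least 1 window, and Cdkn1a held neither.

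**Figure D4:**
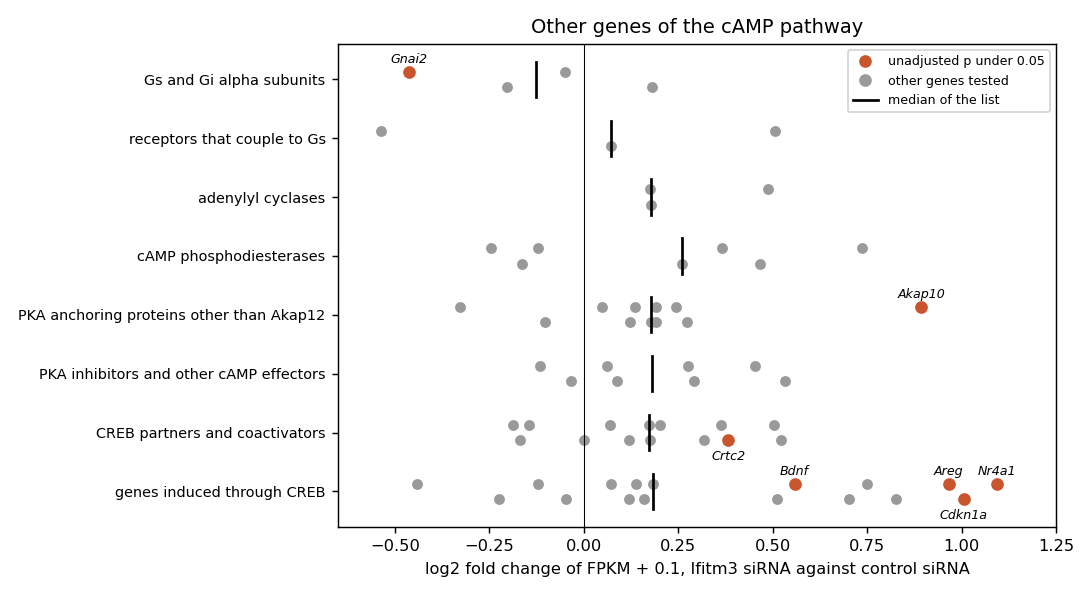
Log2 fold change of FPKM + 0.1 (x axis, Ifitm3 siRNA against control siRNA) of the 67 cAMP pathway genes above the filter, 1 point a gene, in 8 lists (y axis), with black bars for list medians. The 7 orange points have an unadjusted p under 0.05, 6 to the right of 0 and Gnai2 to the left, and 0 pass after adjustment.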

How the data were processed

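Sequencing covered 3 control siRNA and 3 Ifitm3 siRNA libraries of mNRPCs. The values the authors deposited are FPKM, 1 column a library, a unit inferred from the tools and from the values. The submitters' processing notes name the trimmer cutadapt 1.9, the aligner HISAT2 2.0.4, the assembler StringTie 1.3.4d, and hg18, a human build, although 99.5% of the 55401 identifiers match the mouse annotation GENCODE vM21 (GRCm38). No source used here gives the annotation used for counting. Gene positions and 3′ UTRs were therefore read from GENCODE by identifier and apply to the genes, not to the deposited values.

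From the deposited FPKM, log2(FPKM + 0.1) was computed, and 13588 genes whose mean over all libraries reached 0.5 FPKM were fitted with limma 3.58.1 in R 4.3.3 (group as the single term, empirical Bayes with a trend, two-sided tests, Benjamini-Hochberg adjustment over all genes tested). The pair of thresholds on fold change and p in the report is that of the paper, with the logFC taken to be log2 and the P to be unadjusted. Members and gene lists were chosen with earlier results of these data known. Within each list the genes named were up to 4 with the smallest p among those with an unadjusted p under 0.05 and a mean of at least 1 FPKM, or else the 2 with the highest mean. Of 123 listed genes, Akap2 had no row under that symbol.

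The alternatives were a pseudocount of 1, no filter, median-ratio scaling, quantile normalization, the replicate number as a block, leaving out each library, and leaving out both replicate 2 libraries. The limma step was tested on simulated data. Sequences were searched in Python 3.11.15 with pandas 2.3.3. The siRNA sequences are those the study lists. Depth is unknown, so no counting error is given.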

Additional observations from a re-analysis of the deposited data

How the results depend on the processing

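Over 12 alternatives, the counts of called genes among the 8 PKA and CREB genes did not change, and the fold changes of Prkaca, Prkar1a, Creb1 (below 0) and Crem (above 0) kept their direction in all 12. No named gene past an unadjusted p under 0.05 changed direction, but 8 such calls were lost and 6 gained over single alternatives. Pde3b gained a call with the replicate block (limma, unadjusted p = 0.0202, log2 fold change 0.47). Without both replicate 2 libraries Pde3b (log2 fold change 0.50) and Ptger4 (0.77) gained one. The other gains and all losses came without single libraries. The count of all genes at the paired thresholds on fold change and p, 194, became 413 with no filter, 80 when the pseudocount was 1, 306 without both replicate 2 libraries, and 166 to 352 without single libraries. The count of higher genes at an unadjusted p under 0.05, 723, was 1093 with no filter and 479 to 886 without single libraries. It was 1001 with the replicate block, 496 with median-ratio scaling and 513 with quantile normalization. The count of lower genes, 458, was 612 with no filter and 243 to 600 without single libraries. It was 636 with the replicate block, 654 with median-ratio scaling and 604 with quantile normalization. The 1 gene at an adjusted p under 0.05 (limma) became 0 with the replicate number as a block and 0 without both replicate 2 libraries, and 0 to 3 without single libraries. Among the cAMP pathway genes, the 2 at the paired thresholds became 0 with a pseudocount of 1, 1 with median-ratio scaling, 1 with quantile normalization, 4 without both replicate 2 libraries and 0 to 4 without single libraries. The 6 higher genes became 11 without both replicate 2 libraries and 4 to 11 without single libraries, and the 1 lower gene 1 to 2. The cause was not tested.

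The groups share replicate numbers, but deviations from the group means of same-numbered libraries correlated at 0.0697, 0.433 and 0.0350, and control replicates 1 and 3 correlated best with another number (0.125 and 0.359), so the numbers were not taken to pair the libraries, although the replicate 2 libraries correlated most of all 9 pairs. With the replicate block the cAMP pathway counts were 12 higher and 2 lower, and the member counts stayed at 0 higher and 1 lower.

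Depth is unknown, so for Prkar1b, Crem and Akap12 the part of counting error in their spread cannot be given.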
